A study of Homo sapiens with 6 samples.

Results

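Set 5 is 1 of 3 numbered sets of RNA sequencing libraries made from cells labelled Huh7, and its 2 libraries, 1 labelled NACER_ASO and 1 labelled NC, were compared here with the 4 libraries of sets 2 and 6. The 2 libraries were chosen by the set number in their titles and make up 2 of the 6 libraries of the series. Sets 2 and 6 also hold 1 NACER_ASO and 1 NC library each, so treatment was balanced over the sets. NACER_ASO is the knockdown of NACER, which the series title describes as a long non-coding RNA of liver, and NC is the group it is set against. Neither the agent behind NC nor what the set numbers stand for is stated in the labels. All 6 libraries carry the same cell line label and no other genotype or agent, and per the labels' protocols each was made from 1 ug of Trizol-extracted total RNA with a stranded poly(A) selection kit.

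Huh7 is an established line grown from a human hepatocellular carcinoma, and it keeps the secretion of albumin and alpha-fetoprotein. Epithelial cells hold to their neighbours through cadherin and tight junctions, while mesenchymal cells carry vimentin filaments and lay down collagens and proteoglycans. Carcinoma lines can sit anywhere between these states, and repressors such as ZEB1 lower the cadherin CDH1 where the mesenchymal state prevails. Hepatocytes are epithelial cells whose genes for plasma proteins, lipoproteins and nitrogen disposal are driven by factors such as HNF4A.

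Expression is given in FPKM, the fragments of a transcript per kilobase of its length at a fixed library size. In set 5, 12956 and 12938 genes reached 1 FPKM, in a range of 12738 to 14635 over the 6 libraries. The low values implied roughly 15.7 to 28.3 M fragments per library, without whole reads being recovered. The 10 most abundant genes took 9.61% and 9.35% of the summed FPKM in set 5, against 6.07% to 6.66% in sets 2 and 6, and the part of this in the differences below was not tested. Across genes, the libraries of 1 set correlated at 0.984 to 0.994, set 5 with the other sets at 0.824 to 0.870, and set 2 with set 6 at 0.930 to 0.948. The first principal component held 71.4% of the variance and placed set 5 at 81.3 and 80.2 and the other 4 libraries between -52.8 and -28.1. The second, with 22.98%, separated set 2 from set 6, and the third, with 3.02%, followed treatment. The labels do not say whether sets were separate cultures, so set 5 is 1 set against 2, and p-values from the 6 libraries measure the spread between libraries, part of which may be technical. For a single value, an exact permutation test of 2 against 4 libraries cannot go below p = 0.0667. The liver label was checked through AFP and ALB, the genes of alpha-fetoprotein and albumin, which do not tell Huh7 from another line that makes both. AFP had at least 224 FPKM and ALB at least 576 FPKM in each of the 6 libraries. All sets carry the same cell line label, but whether the set 5 libraries come from the same line as those of sets 2 and 6 was not tested. A difference between lines and a difference between sets of 1 line cannot be told apart in any value below.

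The 6 marker genes placed set 5 on the epithelial and liver side of the other sets. CDH1, the epithelial cadherin, had 98.1 and 97.5 FPKM in set 5, against 11.6 and 10.1 in set 2 and 14.2 and 15.02 in set 6. EPCAM, an epithelial cell adhesion molecule, had 214 and 200.3 FPKM in set 5, against 19.9 and 18.1 in set 2 and 32.2 and 31.9 in set 6. For both genes the set 5 libraries lay far above the others, by 7.68-fold for CDH1 and 8.11-fold for EPCAM in mean FPKM. APOA1, the main protein of high density lipoprotein, had 516 and 479.6 FPKM in set 5, against 26.9 and 24.5 in set 2 and 6.78 and 5.54 in set 6. AFP, the fetal counterpart of albumin, had 2892 and 2728 FPKM in set 5, against 912 and 767 in set 2 and 228 and 224 in set 6. These liver genes were highest in set 5, and set 2 stood above set 6 in both. VIM, the intermediate filament vimentin, had 53.5 and 51.2 FPKM in set 5, against 801 and 927 in set 2 and 1028 and 1029 in set 6, so that it was 18.1-fold lower in set 5. LUM, the matrix proteoglycan lumican, had 0.0167 and 0 FPKM in set 5, against 224 and 199.6 in set 2 and 182 and 190.3 in set 6, and set 5 was at or near 0 where the other 4 libraries were high.

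**Figure D1:**
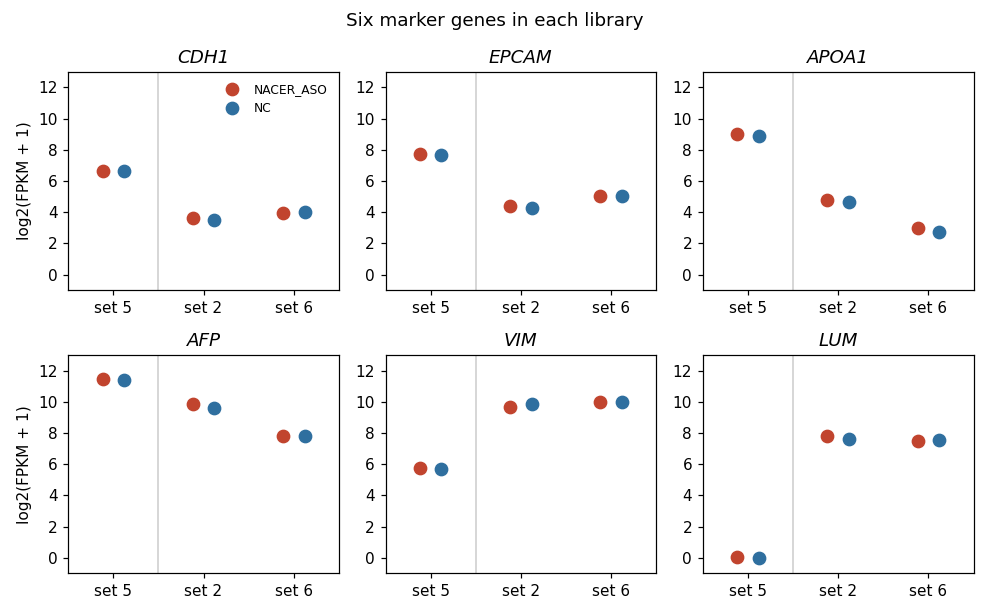
Level of 6 marker genes, as log2(FPKM + 1), in the 2 libraries of set 5 and the 4 libraries of sets 2 and 6; each point is 1 library, coloured by treatment. In CDH1, EPCAM, APOA1 and AFP both set 5 points lie above the other 4, and in VIM and LUM both lie below them.

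Differences on the log2(FPKM + 1) scale come out too small for genes of low level. On that scale, the difference of set 5 from sets 2 and 6 was 2.86 for CDH1 (95% confidence interval 2.39 to 3.33, limma adjusted p = 0.000901) and 3.02 for EPCAM (2.27 to 3.76, adjusted p = 0.00238). It was 5.18 for APOA1 (3.31 to 7.04, adjusted p = 0.00668), 2.69 for AFP (0.83 to 4.54, adjusted p = 0.0410), -4.14 for VIM (-4.50 to -3.79, adjusted p = 0.000285) and -7.63 for LUM (-7.93 to -7.32, adjusted p = 4.63e-05). LUM passed the filter on low values only through sets 2 and 6, so that its difference is in part built in. A fit to set means has 1 value for set 5, and its spread comes from sets 2 and 6 alone. With each set reduced to the mean of its 2 libraries, CDH1 (adjusted p = 0.0401), VIM (0.0205) and LUM (0.00658) were still called, while EPCAM (0.0512), APOA1 (0.0703) and AFP (0.180) were not. In hg19 the markers lie at chr16:68771193-68869445 (CDH1), chr2:47596287-47614167 (EPCAM), chr11:116706467-116708666 (APOA1), chr4:74301936-74321502 (AFP), chr10:17270258-17279592 (VIM) and chr12:91497232-91505542 (LUM), each locus spanning the transcripts listed for the gene.

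AFP and VIM are the liver and mesenchymal markers whose upstream sequence was at hand from RefSeq (GRCh38.p14), and 2 of the 6 markers were matched in that table. The 250 bases before the start of each are shown on the plus strand, AFP at chr4:73435971-73436220 and VIM at chr10:17227991-17228240, with a TATAAA run in capitals.
AFP: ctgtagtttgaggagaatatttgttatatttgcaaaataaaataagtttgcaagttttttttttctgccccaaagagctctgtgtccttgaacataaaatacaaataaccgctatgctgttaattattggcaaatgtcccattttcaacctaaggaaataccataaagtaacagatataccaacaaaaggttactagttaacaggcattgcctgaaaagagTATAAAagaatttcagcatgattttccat
VIM: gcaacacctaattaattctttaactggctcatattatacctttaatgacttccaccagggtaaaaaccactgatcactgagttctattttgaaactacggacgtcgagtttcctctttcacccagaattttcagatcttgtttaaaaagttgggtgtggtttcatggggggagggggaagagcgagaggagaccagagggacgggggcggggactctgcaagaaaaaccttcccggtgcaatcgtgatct
Both strands were searched for CACCTG (bound by ZEB and SNAIL family repressors), AACCGGTT (Grainyhead-like factors), CAAAGTCCA (HNF4) and TATAAA (the TATA box), none of which contains another. These letters occur in 17.5%, 0.117%, 0.325% and 10.7% of 35116 RefSeq promoter windows of the same length, in that order. The AFP window held 1 match, a TATAAA that begins 29 bases before the start, and the VIM window held 0 matches. G and C made up 31.6% of the AFP window and 46.0% of the VIM window, against a median of 58.0% over all windows.

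Over the 15036 genes that reached 1 FPKM in 2 or more libraries, 2079 (13.8%) were called higher and 3226 (21.5%) lower in set 5 at an adjusted p under 0.05. Each of the 5305 genes called was also called, in the same direction, against set 2 alone and against set 6 alone with set as a 3-level factor, and had the same sign within NACER_ASO and within NC. These contrasts use the same libraries as the calls, so that this match is largely built in. Set 5 lay wholly outside the range of the other 4 libraries in 5299 of the 5305 genes. Regardless of calls, 23.5% of the genes had both set 5 libraries above the other 4 and 39.6% had both below. The differences were often large: 1072 genes were called at least 1 log2 unit higher and 1626 at least 1 unit lower, and 112 and 120 at least 3 units. Of the genes tested, 464 passed the filter on low values only through set 5 and 1928 only through the other sets, so that a difference in these genes is in part built in. Among the tested genes named below, this holds for each that was under 1 FPKM in every library of 1 side.

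The call counts depended on what was taken as the unit. With the set as a random block (correlation within a set 0.825), limma called 719 higher (4.78%) and 940 lower (6.25%), and with each set reduced to its mean it called 65 higher (0.432%) and 98 lower (0.652%); all of these were among the 5305. Without the set 5 NACER_ASO library the counts were 96 higher and 227 lower, and without the set 5 NC library 75 higher and 226 lower. The scaling moved the balance of directions. The median difference over all genes was -0.24, which median-of-ratios scaling shifted by 0.15 and quantile normalization by 0.21. The share of calls that were higher was 39.2% in FPKM, 52.3% with median-of-ratios scaling, 54.5% with quantile normalization and 33.4% after rescaling to equal sums. The list medians below are to be read against -0.24, and those near 0 (desmosome, glycolysis, gluconeogenesis, G2 and mitosis, and immune lists) changed sign under at least 1 of these scalings. Random block counts of the lists are to be read against 4.78% of all genes higher and 6.25% lower.

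**Figure D2:**
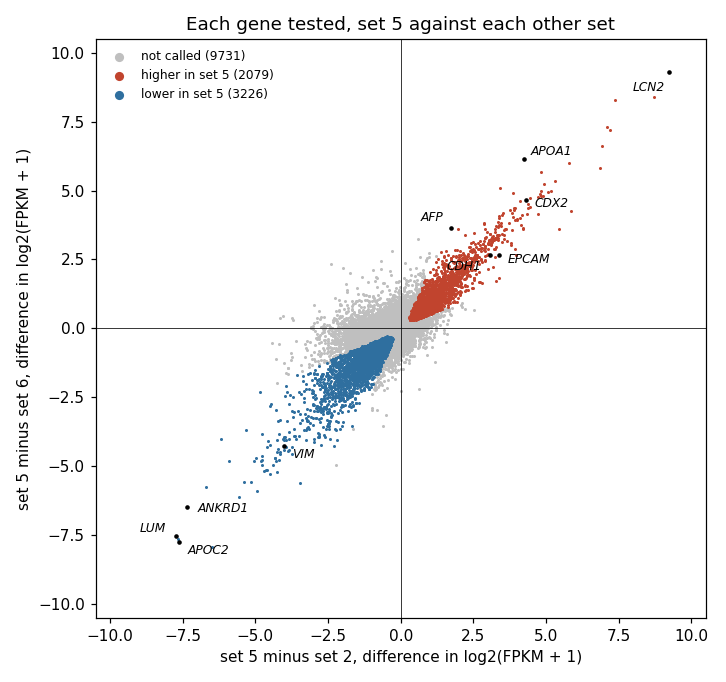
Difference in log2(FPKM + 1) of each of 15036 genes, set 5 minus set 2 on the horizontal axis and set 5 minus set 6 on the vertical axis, coloured by the call against both sets together. The axes share the set 5 libraries, so a diagonal trend is built in; the 2079 genes called higher and the 3226 called lower all lie in the quadrants where the signs match.

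The sets 2 and 6 were not alike either. With set as a 3-level factor, 72.7% of genes were called between set 5 and set 2 (3666 higher, 7264 lower), 62.6% between set 5 and set 6 (3726 higher, 5681 lower) and 50.1% between set 6 and set 2 (2915 higher, 4616 lower). Differences of more than 1 log2 unit were found for 4378 genes (29.1%), 3106 genes (20.7%) and 1751 genes (11.6%) in those contrasts. The 3 contrasts share libraries, and their error rests on the spread within sets.

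The largest differences towards set 5 were in genes of several kinds. LCN2, the iron-scavenging lipocalin, had 828 and 771 FPKM in set 5, against 0.426 and 0.227 in set 2 and 0.34997 and 0.216 in set 6, and it was 2623-fold higher. CES1, a liver carboxylesterase, had 435 and 413 FPKM in set 5, against 0 and 0 in set 2 and 0.433 and 0.0959 in set 6. COL2A1, a collagen best known from cartilage, had 379.6 and 356 FPKM in set 5, against 1.45 and 1.07 in set 2 and 0.213 and 0.144 in set 6, and was 513-fold higher. RBP2, the retinol-binding protein of enterocytes, had 148 and 143 FPKM in set 5 and was listed at 0 in the other 4 libraries. The protease inhibitors SLPI (186 and 174 FPKM in set 5 and 0.454 to 0.904 in sets 2 and 6) and PI3 (254 and 236 FPKM in set 5 and 0.995 to 4.63 in sets 2 and 6) and the secretory pathway protein AGR2 (304 and 282 FPKM in set 5 and 3.48 to 5.26 in sets 2 and 6) were also among the 15 largest. So were the gastrointestinal glutathione peroxidase GPX2 (492 and 483 FPKM in set 5 and 7.01 to 25.5 in sets 2 and 6), PRAP1 (72.6 and 66.6 FPKM in set 5 and 0.806 to 1.62 in sets 2 and 6) and PRSS3, a trypsinogen gene with near-identical relatives (54.7 and 52.5 FPKM in set 5 and 0.5702 to 0.953 in sets 2 and 6). The log2 differences of these 10 genes ran from 5.01 to 9.26, and their limma adjusted p from 2.52e-05 to 0.00451. LCN2, CES1, RBP2, SLPI and PRSS3 were under 1 FPKM throughout sets 2 and 6. They passed the filter only through set 5, so that their difference and its p are in part built in.

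The largest differences in the other direction were also in genes of several kinds. APOC2, an activator of lipoprotein lipase, had 0.174 and 0.273 FPKM in set 5, against 235 and 251 in set 2 and 273 and 248 in set 6, against the direction of APOA1. TMSB4X, which binds actin monomers, had 4.12 and 4.73 FPKM in set 5, against 1034 and 1147 in set 2 and 1092 and 1052 in set 6. LGALS1, the lectin galectin-1, had 3.35 and 2.52 FPKM in set 5, against 338 and 372 in set 2 and 994 and 921 in set 6, and set 6 exceeded set 2 in it. ANKRD1, a target of YAP, had 1.66 and 2.51 FPKM in set 5, against 470.3 and 531 in set 2 and 271 and 275 in set 6. VGLL3, a cofactor of TEAD factors, had 0.189 and 0.199 FPKM in set 5, against 135 and 110.3 in set 2 and 34.2 and 115 in set 6, with a low set 6 NACER_ASO library that still lay far above set 5. Near 0 in both set 5 libraries were also TMEM176A (0.108 and 0 FPKM in set 5 and 46.7 to 78.3 in sets 2 and 6) and CRIP1 (0 and 0.213 FPKM in set 5 and 43.1 to 57.6 in sets 2 and 6). The same held for the growth factor gene EREG (0.0459 and 0.0172 FPKM in set 5 and 26.997 to 62.1 in sets 2 and 6) and the adipokine gene RARRES2 (0.0956 and 0 FPKM in set 5 and 26.7 to 36.98 in sets 2 and 6). IGFBP2 (0.857 and 0.899 FPKM in set 5 and 46.1 to 72.9 in sets 2 and 6) and S100A16 (0.938 and 0.805 FPKM in set 5 and 40.1 to 74.9 in sets 2 and 6) were under 1 FPKM in set 5. The log2 differences of these 11 genes ran from -7.69 to -4.89. All but TMSB4X, LGALS1 and ANKRD1 were under 1 FPKM in set 5. Those passed the filter only through the other sets, so that their difference is in part built in. By a fixed rule of size, 65 genes had at least 5 FPKM in both set 5 libraries and under 0.5 FPKM in the other 4, and 67 showed the reverse. Among the 10 most abundant of each kind were, besides genes already named, CA4, a carbonic anhydrase (33.1 and 29.9 FPKM in set 5 and 0.0151 to 0.184 in sets 2 and 6), and NOX1, an NADPH oxidase of colon epithelium (27.5 and 24.3 FPKM in set 5 and 0 to 0.0362 in sets 2 and 6), on the side of set 5. The uncharacterised LOC102724297 (26.6 and 37.95 FPKM in set 5 and 0 to 0.239 in sets 2 and 6) was another. On the other side were FHL2, a LIM-domain cofactor (0.378 and 0.251 FPKM in set 5 and 24.4 to 40.1 in sets 2 and 6), and OLR1, a receptor for oxidised lipoprotein (0.0683 and 0.0163 FPKM in set 5 and 9.3004 to 53.2 in sets 2 and 6).

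Liver genes were called higher in set 5 more often than lower. Of 268 members of 9 liver lists, 211 were tested, 74 were higher (35.1%, against 13.8% of all genes) and 39 lower (18.5%, against 21.5%), with a median of 0.31. Of the 211, 16 had passed the filter only through set 5 and 19 only through the other sets. Under the random block, 53 were called higher and 25 lower. Urea cycle and ammonia genes had 11 higher and 2 lower of 21, with a median of 0.73 (random block 8 higher and 2 lower). CPS1, which commits ammonia to the urea cycle, had 14.5 and 13.3 FPKM in set 5, against 0.649 and 0.254 in set 2 and 0.115 and 0.0871 in set 6. ASS1, the next enzyme but one of the cycle, had 56.2 and 49.6 FPKM in set 5, against 2.99 and 2.696 in set 2 and 5.61 and 5.64 in set 6. OAT, which links ornithine to proline and glutamate, went the other way, with 22.8 and 19.2 FPKM in set 5 and 49.9 to 71.9 in sets 2 and 6.

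Plasma carriers and protease inhibitors had 8 higher and 4 lower of 22 tested, with a median of 0.57 (random block 7 higher and 4 lower). SERPINA1, the liver's elastase inhibitor, had 636 and 677 FPKM in set 5, against 250.1 and 235 in set 2 and 116 and 126 in set 6. RBP4, the retinol carrier of plasma, had 1087 and 1045 FPKM in set 5, against 188 and 211 in set 2 and 129 and 118 in set 6. HP, haptoglobin, had 53.6 and 54.9 FPKM in set 5 and 0.815 to 3.06 in sets 2 and 6. The vitamin D carrier GC had 35.2 and 37.2 FPKM in set 5 and 8.42 to 11.4 in sets 2 and 6. SERPIND1, heparin cofactor II, was 12.5-fold lower, with 5.68 and 5.11 FPKM in set 5 and 45.5 to 85.7 in sets 2 and 6. ALB had 1242 and 1229 FPKM in set 5, against 1187 and 1061 in set 2 and 576 and 616 in set 6, and at 0.59 (interval -0.33 to 1.52, adjusted p = 0.258) it was not called. TTR, transthyretin, had 38.9 and 36.1 FPKM in set 5, against 67.2 and 65.2 in set 2 and 10.3 and 9.38 in set 6, so set 5 lay between the other sets. Among acute phase proteins, 7 were higher and 3 lower of 14, with a median of 0.90 (random block 6 higher and 3 lower), and LCN2 and HP belong here too. The orosomucoid genes ORM1 (13.7 and 14.3 FPKM in set 5 and 173 to 206 in sets 2 and 6) and ORM2 (5.74 and 6.12 FPKM in set 5 and 98.3 to 123 in sets 2 and 6), near-identical neighbours between which reads can be divided, were 13.6-fold and 18.9-fold lower.

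Lipoprotein genes split. Of 21 tested, 5 were higher and 4 lower, with a median of -0.29 (random block 4 higher and 3 lower). MTTP, which loads lipid onto apolipoprotein B, had 89.8 and 90.5 FPKM in set 5, against 9.51 and 6.498 in set 2 and 5.39 and 5.21 in set 6, and it was higher along with APOA1. APOA2, the second protein of high density lipoprotein, had 65.2 and 60.2 FPKM in set 5, against 518 and 538 in set 2 and 320.1 and 286 in set 6, and was lower along with APOC2. Coagulation and complement genes had 8 higher (25.0%, against 13.8% of all genes) and 10 lower (31.2%, against 21.5%) of 32, with a median of -0.38 (random block 6 higher and 6 lower). Of the 32, 1 had passed the filter only through set 5 (F12, whose difference is in part built in) and 7 only through the other sets. The 24 that reached 1 FPKM on both sides had 7 higher and 7 lower. The members named next were all higher and do not stand for the list. Higher were the kininogen gene KNG1 (26.7 and 25.5 FPKM in set 5 and 0.327 to 1.13 in sets 2 and 6), the contact factor F12 (8.85 and 8.56 FPKM in set 5 and 0.136 to 0.553 in sets 2 and 6) and the complement inhibitor C4BPA (10.4 and 10.7 FPKM in set 5 and 1.68 to 2.62 in sets 2 and 6).

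Among hepatocyte transcription factors, 9 were higher and 5 lower of 30 tested, with a median of 0.65 (random block 3 higher and 1 lower). HNF4A, the central hepatocyte nuclear receptor, had 72.8 and 77.1 FPKM in set 5, against 28.2 and 29.5 in set 2 and 28.1 and 25.1 in set 6. MLXIPL, a glucose-sensing activator of lipogenesis, had 4.63 and 3.96 FPKM in set 5 and 0.256 to 0.617 in sets 2 and 6, and HHEX, a homeobox factor of early liver, had 13.04 and 14.6 FPKM in set 5 and 34.96 to 47.5 in sets 2 and 6 and was lower. FOXA1 (22.1 and 24.5 FPKM in set 5, against 14.3 and 16.1 in set 2 and 6.91 and 6.99 in set 6) and FOXA2 (24.2 and 26.7 FPKM in set 5, against 41.5 and 9.34 in set 2 and 6.58 and 6.93 in set 6), which open liver enhancers, were not called, and their values in sets 2 and 6 were spread widely. Oncofetal genes had 7 higher and 3 lower of 17, with a median of 0.58 (random block 5 higher and 1 lower). AKR1B10, an aldo-keto reductase raised in many liver tumours, had 324 and 313 FPKM in set 5, against 6.58 and 7.43 in set 2 and 6.61 and 6.98 in set 6, and was 46.2-fold higher. HMGA2 (42.9 and 41.4 FPKM in set 5 and 11.2 to 17.1 in sets 2 and 6) and IGF2BP1 (55.7 and 61.6 FPKM in set 5 and 38.7 to 43.1 in sets 2 and 6) were higher as well. LIN28A, which blocks let-7 maturation, had 0.0468 and 0.0508 FPKM in set 5 and 4.06 to 12.4 in sets 2 and 6 and was lower. GPC3, the glypican of hepatomas, had 207 and 199 FPKM in set 5, against 241 and 219 in set 2 and 100.3 and 104 in set 6 and was not called.

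Drug and bile acid metabolism leaned the same way in part. Cytochromes P450 and bile acid genes had 10 higher (32.3%, against 13.8% of all genes) and 3 lower (9.68%, against 21.5%) of 31 tested (median 0.21, random block 9 higher and 1 lower). Conjugating enzymes had 12 higher (41.4%) and 6 lower (20.7%, near that of all genes) of 29 (median 0.22, random block 8 higher and 5 lower). In these lists 4 and 6 members had passed the filter only through set 5. Of the 26 and 21 members that reached 1 FPKM on both sides, 7 were higher in each list, and 3 and 5 were lower. The glutathione transferase GSTA1 had 162 and 164 FPKM in set 5, against 0.2801 and 0.0941 in set 2 and 0 and 0.0633 in set 6. Its neighbour GSTA2, with which it can share reads, had 28.2 and 28.996 FPKM in set 5 and 0.112 to 0.489 in sets 2 and 6. SULT1A1, a phenol sulfotransferase with close copies, had 20.1 and 16.7 FPKM in set 5 and 1.11 to 1.66 in sets 2 and 6, and GSTM3 had 1.42 and 1.49 FPKM in set 5 and 13.1 to 15.1 in sets 2 and 6 and was lower. CYP2S1 (19.6 and 17.5 FPKM in set 5 and 0.581 to 0.9904 in sets 2 and 6) and CYP4F12 (6.73 and 6.47 FPKM in set 5 and 0.569 to 0.797 in sets 2 and 6) were higher. The oxysterol hydroxylase CYP39A1 (6.47 and 5.71 FPKM in set 5 and 0.954 to 1.62 in sets 2 and 6) and the bile acid exporter ABCC3 (24.4 and 23.98 FPKM in set 5 and 5.34 to 6.59 in sets 2 and 6) were higher as well.

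Epithelial junction genes were higher in part, with a share of lower genes near that of all genes. Of 94 epithelial members, 77 were tested, 26 were higher (33.8%, against 13.8% of all genes) and 17 lower (22.1%, against 21.5%), with a median of 0.18, and 7 of the 77 had passed the filter only through set 5 and 11 only through the other sets. The random block called 17 higher and 6 lower. In the adherens junction and epithelial identity list 14 were higher and 3 lower of 28 (median 0.76, random block 11 higher and 0 lower). ESRP1, which directs epithelial splicing, had 4.86 and 4.58 FPKM in set 5, against 0.0696 and 0 in set 2 and 0.0218 and 0.0329 in set 6. CDH17, the liver-intestine cadherin, had 73.4 and 74.5 FPKM in set 5, against 6.23 and 4.86 in set 2 and 3.002 and 3.21 in set 6. KLF5, a factor of intestinal crypts, had 51.2 and 52.8 FPKM in set 5 and 13.2 to 16.8 in sets 2 and 6. Tight junction and polarity genes had 10 higher and 6 lower of 23 (median 0.23, random block 5 higher and 2 lower). TJP3, a junctional scaffold, had 30.04 and 29.9 FPKM in set 5, against 0.697 and 0.6698 in set 2 and 1.56 and 1.52 in set 6, and was 26.9-fold higher. CLDN4 had 4.55 and 4.36 FPKM in set 5 and 0.274 to 0.508 in sets 2 and 6 and was higher, whereas the claudins CLDN1 (104 and 112 FPKM in set 5 and 233 to 273 in sets 2 and 6) and CLDN6 (9.11 and 10.1 FPKM in set 5 and 61.7 to 74.9 in sets 2 and 6) were lower.

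Keratin and desmosome genes were not called higher more often than all genes. The desmosome list had 1 higher (5.88%, against 13.8% of all genes) and 3 lower (17.6%, against 21.5%) of 17 (median 0.05, random block 0 higher and 2 lower). The keratin list had 1 higher (11.1%) and 5 lower (55.6%) of 9 (median -1.10, random block 1 higher and 2 lower). In these lists 4 and 3 members, with PKP3 and KRT7, had passed the filter only through the other sets. Their difference is in part built in. Of the 12 and 6 members that reached 1 FPKM on both sides, 1 was higher and 2 were lower in each list. KRT8 (1885 and 1899 FPKM in set 5, against 1395 and 1636 in set 2 and 1182 and 1124 in set 6) and KRT18 (1113 and 1123 FPKM in set 5, against 1098 and 1356 in set 2 and 1009 and 931 in set 6), the keratin pair of hepatocytes, were abundant in every library and not called. KRT19, the keratin of bile duct cells, had 2.597 and 1.15 FPKM in set 5, against 67.96 and 68.7 in set 2 and 103 and 89.2 in set 6, and was 43.9-fold lower. KRT7, its biliary partner, was listed at 0 in both set 5 libraries and had 1.91 to 2.85 FPKM in sets 2 and 6. KRT10 (4.43 and 4.31 FPKM in set 5 and 9.66 to 12.2 in sets 2 and 6) was lower and KRT15 (5.72 and 5.52 FPKM in set 5 and 0.479 to 1.05 in sets 2 and 6) higher. PKP3, a desmosomal plakophilin, was listed at 0 in both set 5 libraries and had 13.2 to 20.7 FPKM in sets 2 and 6, while PKP2 was higher (24.5 and 24.8 FPKM in set 5 and 10.97 to 16.9 in sets 2 and 6). DST (19.3 and 21.95 FPKM in set 5 and 55.5 to 61.4 in sets 2 and 6), of the hemidesmosome, was lower.

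Several intestinal markers were higher in set 5. Of 16 intestinal and gastric markers, 11 were tested, 7 were higher (63.6%, against 13.8% of all genes) and 0 lower, also with the random block. GUCY2C, SI and TFF2, 3 of the 7, had passed the filter only through set 5, so that their difference is in part built in. Of the 7 markers that reached 1 FPKM on both sides, 4 were higher and 0 lower. CDX2, the homeobox factor that specifies intestine, had 50.5 and 54.3 FPKM in set 5, against 1.59 and 1.82 in set 2 and 1.27 and 1.02 in set 6. GUCY2C, the enterocyte receptor for guanylin, had 30.5 and 28.1 FPKM in set 5, against 0.144 and 0.0433 in set 2 and 0.0108 and 0.0542 in set 6. SI, sucrase-isomaltase of the brush border, had 13.05 and 12.99 FPKM in set 5, against 0.0685 and 0.0319 in set 2 and 0 and 0 in set 6. TFF2, a trefoil peptide, had 27.1 and 27.1 FPKM in set 5 and was listed at 0 in the other 4 libraries. Tested but not called were VIL1 (73.7 and 71.1 FPKM in set 5 and 50.3 to 70.4 in sets 2 and 6) and MUC13 (76.6 and 68.5, and 9.77 to 50.9). The same held for LGALS4 (4.02 and 4.57, and 4.64 to 15.9) and REG4 (0.272 and 0.0666, and 0.0550 to 2.10). Sets 2 and 6 thus also expressed part of the list. In set 5 the list was not present in full. CDX1, a relative of CDX2, had 0.179 and 0 FPKM in set 5 and 0 to 0.167 in sets 2 and 6, and FABP2, the fatty acid carrier of enterocytes, was listed at 0 in both set 5 libraries; these 2 genes were picked after their values were seen. The summed level of the 16 markers was 391.6 and 379.1 FPKM in set 5 and 89.0 to 131.7 FPKM in sets 2 and 6.

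Mesenchymal and matrix genes were the programme most often lower in set 5. Of 169 members, 121 were tested, 16 were higher (13.2%, against 13.8% of all genes) and 59 lower (48.8%, against 21.5%), with a median of -0.87. Of the 121, 3 had passed the filter only through set 5 and 29 only through the other sets. The random block left 10 called higher and 42 lower. Among 30 genes of the epithelial-mesenchymal switch, 19 were lower and 3 higher (median -1.74, random block 1 higher and 16 lower). TPM2, a muscle-type tropomyosin, had 29.3 and 26.9 FPKM in set 5, against 328 and 327 in set 2 and 459.5 and 412 in set 6. ZEB1, a repressor of CDH1, had 1.83 and 2.07 FPKM in set 5, against 8.58 and 6.99 in set 2 and 7.37 and 7.501 in set 6. CDH2, the neural cadherin that mesenchymal cells use, had 14.3 and 14.4 FPKM in set 5, against 34.05 and 28.8 in set 2 and 32.6 and 36.8 in set 6. S100A4 (1.96 and 1.897 FPKM in set 5 and 12.99 to 16.1 in sets 2 and 6) and the lysyl oxidase homologue LOXL2 (2.04 and 0.959 FPKM in set 5 and 19.3 to 27.8 in sets 2 and 6) were lower too. SNAI2, another repressor, had 0.0502 and 0.0518 FPKM in set 5, against 1.401 and 2.39 in set 2 and 0.443 and 0.196 in set 6, and near the filter it was not called (adjusted p = 0.214). FN1, fibronectin, went against the list, with 671 and 801 FPKM in set 5, against 425 and 373 in set 2 and 212 and 226 in set 6 and an adjusted p of 0.0399.

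Collagens split, with 5 higher and 8 lower of 20 tested (random block 4 higher and 7 lower). COL1A2, a chain of type I collagen, had 0.0119 and 0 FPKM in set 5, against 24.9 and 21.8 in set 2 and 36.1 and 32.99 in set 6. COL16A1 had 0.201 and 0.0696 FPKM in set 5 and 15.5 to 18.4 in sets 2 and 6 and was lower, whereas COL14A1 had 47.1 and 50.6 FPKM in set 5 and 5.75 to 7.45 in sets 2 and 6 and was higher along with COL2A1. Among proteoglycans and glycoproteins, 15 were lower and 3 higher of 28 (median -0.86, random block 2 higher and 11 lower). THBS1, thrombospondin, had 8.29 and 11.3 FPKM in set 5, against 72.2 and 87.9 in set 2 and 72.2 and 86.3 in set 6. TGFBI, a matrix protein induced by TGF-beta, had 17.5 and 15.04 FPKM in set 5 and 152 to 171 in sets 2 and 6. Integrins and laminins were near the share of all genes, with 6 lower (28.6%, against 21.5%) and 2 higher (9.52%, against 13.8%) of 21, a median of -0.40 and 3 lower and 2 higher with the random block. ITGAV (13.7 and 15.6 FPKM in set 5 and 74.1 to 95.9 in sets 2 and 6) and ITGB5 (18.4 and 18.5 FPKM in set 5 and 49.96 to 60.3 in sets 2 and 6) were lower. ITGB8 (3.6997 and 3.93 FPKM in set 5 and 0.03101 to 0.275 in sets 2 and 6) and ITGA3 (8.97 and 8.92 FPKM in set 5 and 1.01 to 1.66 in sets 2 and 6) were higher. Of matrix proteases and inhibitors, 13 were lower and 3 higher of 24 (median -0.75, random block 1 higher and 7 lower). TIMP1, a metalloproteinase inhibitor, had 0 and 0.123 FPKM in set 5, against 32.5 and 30.9 in set 2 and 72.99 and 53.6 in set 6. The cysteine protease CTSL had 13.2 and 10.1 FPKM in set 5 and 63.2 to 85.9 in sets 2 and 6 and was lower, and the membrane metalloproteinase MMP15 had 33.7 and 32.3 FPKM in set 5 and 3.899 to 5.63 in sets 2 and 6 and was higher.

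Markers of stellate cells and fibroblasts overlap these lists. Of 17 such markers 10 were tested, 3 were lower (30.0%, against 21.5% of all genes), 1 was higher and 6 were not called (random block 1 higher and 2 lower). Of the 10, 4 had passed the filter only through sets 2 and 6. All 3 lower genes were among these, so that their difference is in part built in. The 6 that reached 1 FPKM on both sides had 1 higher and 0 lower. The 4 called, LUM, COL1A2 and LOX among them, are also members of the mesenchymal lists above, so that these genes are counted in both. The summed level of the 17 markers was 60.9 and 61.5 FPKM in set 5 and 239.8 to 295.9 FPKM in sets 2 and 6. LUM made up most of it in sets 2 and 6, and LOX in set 5. HAND2, a stellate cell factor, was listed at 0 in all 6 libraries, and ACTA2 (0 to 0.09505 FPKM in sets 2 and 6), DCN (0.114 to 0.494), THY1 (0 to 0.0274) and POSTN (0.0373 to 0.452) were at or near 0 in sets 2 and 6. These 5 genes were picked after their values were seen. ACTA2 had 0.684 and 0.458 FPKM in set 5, above sets 2 and 6 but under the filter. Other members were expressed in sets 2 and 6 and not called. They were COL1A1 (3.75 to 11.1 FPKM there), PDGFRA (4.94 to 12.2), RELN (1.53 to 8.15) and RGS5 (1.61 to 3.51). LOX, a collagen cross-linker also counted here, was higher in set 5, with 49.99 and 51.6 FPKM in set 5 and 3.28 to 6.64 in sets 2 and 6. In RNA from bulk cells, fewer cells of a type and less RNA per cell cannot be told apart.

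**Figure D3:**
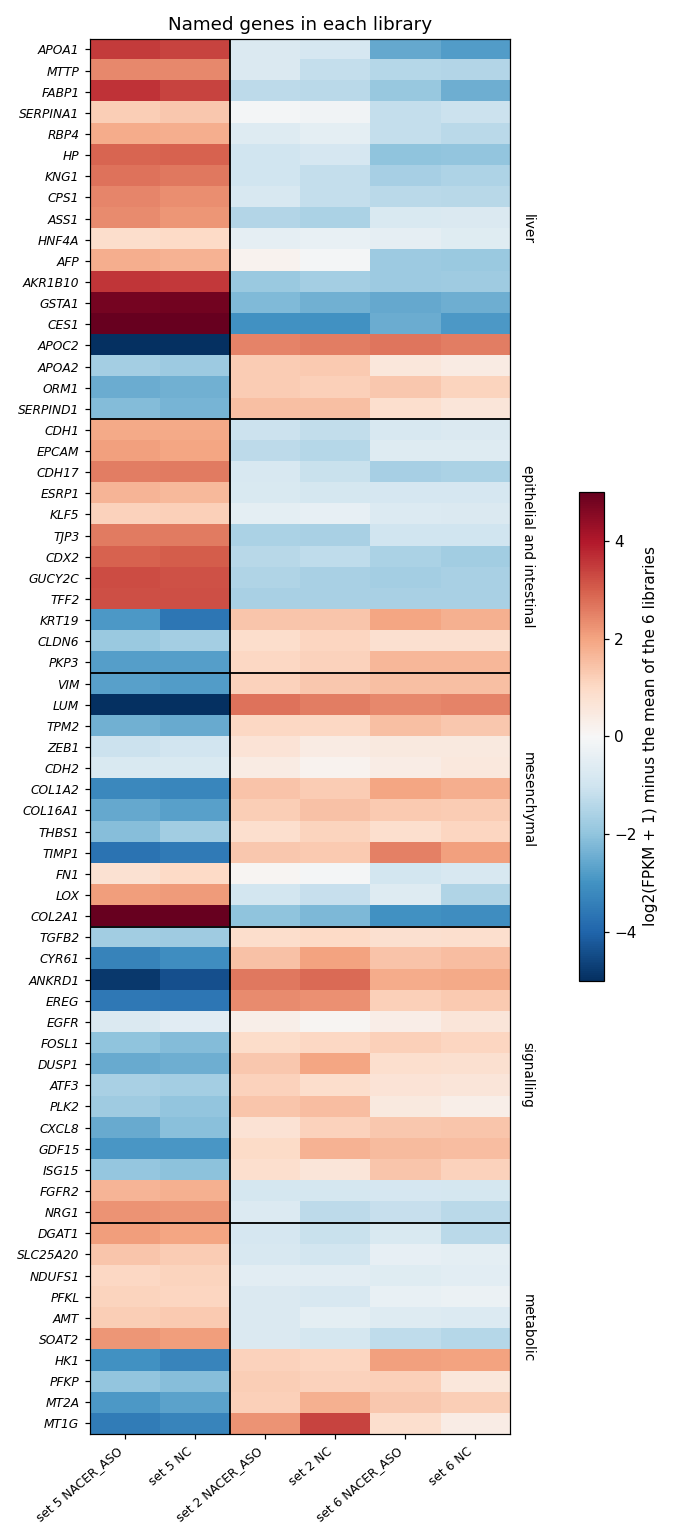
Level of genes named in the text in each library, as log2(FPKM + 1) minus the mean of the 6 libraries, with colours ending at -5 and 5; set 5 is left of the vertical line. Within most rows both set 5 libraries differ from the other 4, and blocks of liver, epithelial, mesenchymal, signalling and metabolic genes hold rows of either sign.

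Signalling genes leaned lower. Of 434 members, 376 were tested, 43 were higher (11.4%, against 13.8% of all genes) and 139 lower (37.0%, against 21.5%), with a median of -0.59. Of the 376, 15 had passed the filter only through set 5 and 40 only through the other sets. By the random block, 18 were called higher and 70 lower. Genes of the TGF-beta and BMP pathway, which drives matrix production, had 21 lower and 5 higher of 44 (median -0.53, random block 1 higher and 13 lower). TGFB2, a ligand, had 2.38 and 2.23 FPKM in set 5, against 19.7 and 20.97 in set 2 and 18.5 and 18.8 in set 6. TGFB1, the main ligand in liver, had 24.6 and 22.997 FPKM in set 5, against 25.8 and 21.9 in set 2 and 46.95 and 39.9 in set 6 and was not called (adjusted p = 0.373). GDF15, a stress-induced member of the family and a p53 target, had 12.2 and 12.4 FPKM in set 5, against 192 and 330.5 in set 2 and 298 and 291 in set 6. In the YAP and TAZ list, whose factors respond to cell shape and stiffness, 14 were lower and 4 higher of 27 (median -0.82, random block 0 higher and 8 lower). CYR61, a matricellular target of YAP, had 5.43 and 6.45 FPKM in set 5, against 179.7 and 259 in set 2 and 174 and 185 in set 6. MYOF, a membrane repair protein, had 12.2 and 11.6 FPKM in set 5 and 62.8 to 74.2 in sets 2 and 6. ANKRD1, described above, belongs to this list and was 185-fold lower in mean FPKM.

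The immediate early and NF-kB lists had no member called higher. AP-1 and other immediate early genes, which respond to growth factors and stress, had 16 lower and 0 higher of 31 (median -1.83), and 27 of the 31 had both set 5 libraries below the other 4, as 39.6% of all genes did. FOSL1, an AP-1 subunit, had 2.77 and 2.42 FPKM in set 5, against 27.9 and 30.6 in set 2 and 34.3 and 31.04 in set 6. ATF3, a stress-induced factor, had 9.41 and 8.87 FPKM in set 5, against 68.8 and 57.3 in set 2 and 50.1 and 47.5 in set 6. BTG2 (7.05 and 5.86 FPKM in set 5 and 27.2 to 29.95 in sets 2 and 6), an antiproliferative gene, and PLK3 (1.42 and 1.33 FPKM in set 5 and 9.33 to 13.1 in sets 2 and 6), a polo-like kinase, were lower too. MAPK feedback genes had 11 lower and 2 higher of 20 (median -1.21, random block 0 higher and 7 lower). DUSP1, a phosphatase of MAP kinases, had 8.803 and 9.32 FPKM in set 5, against 143 and 224 in set 2 and 101 and 97.5 in set 6, and SPRED2, an inhibitor of RAS signalling, had 3.02 and 3.63 FPKM in set 5 and 19.5 to 20.8 in sets 2 and 6. NF-kB targets and chemokines had 19 lower and 0 higher of 32 (median -1.40), and 28 of the 32 lay below the other 4 libraries, against 39.6% of all genes. CXCL8, the neutrophil chemokine interleukin-8, had 26.7 and 35.9 FPKM in set 5, against 261 and 352 in set 2 and 400.2 and 416 in set 6. LIF (1.64 and 2.49 FPKM in set 5 and 16.3 to 33.5 in sets 2 and 6), a cytokine of the interleukin-6 family, RELB (7.69 and 7.001 FPKM in set 5 and 25.9 to 36.1 in sets 2 and 6), an NF-kB subunit, and CXCL16 (15.7 and 16.6 FPKM in set 5 and 68.6 to 78.6 in sets 2 and 6) were lower. With the set as a random block, 8 immediate early genes and 13 NF-kB targets were called lower and 0 of either list higher.

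Growth factor receptors and ligands went both ways, with 18 lower (39.1%, against 21.5% of all genes) and 10 higher (21.7%, against 13.8%) of 46 (median -0.59, random block 6 higher and 6 lower). Of the 46, 5 had passed the filter only through set 5, FGFR2 and NRG1 among them. Another 10, with IRS2, had passed only through the other sets. A difference in these genes is in part built in. The 31 that reached 1 FPKM on both sides had 5 higher and 9 lower. EGFR, the epidermal growth factor receptor, had 23.99 and 27.3 FPKM in set 5, against 49.6 and 43.5 in set 2 and 50.8 and 61.5 in set 6. IRS2, an insulin receptor substrate, had 0.806 and 0.722 FPKM in set 5 and 7.39 to 9.41 in sets 2 and 6 and was lower. FGFR2, a fibroblast growth factor receptor of epithelia, had 5.69 and 5.97 FPKM in set 5, against 0.0985 and 0.106 in set 2 and 0.15004 and 0.112 in set 6 and was higher. NRG1, a ligand of ERBB receptors, had 12.6 and 12.2 FPKM in set 5, against 0.752 and 0.158 in set 2 and 0.282 and 0.108 in set 6 and was higher. MET, the receptor of hepatocyte growth factor, had 22.2 and 23.8 FPKM in set 5 and 20.5 to 27.5 in sets 2 and 6 and at -0.09 (interval -0.47 to 0.29) was not called. Wnt and beta-catenin genes had 7 higher (25.0%, against 13.8% of all genes) and 5 lower (17.9%, against 21.5%) of 28 (median 0.23, random block 4 higher and 1 lower). Of the 28, 4 had passed the filter only through set 5, NKD2 and ROR1 among them. The 22 that reached 1 FPKM on both sides had 3 higher and 3 lower. The Wnt inhibitor DKK1 (3.27 and 3.46 FPKM in set 5 and 56.8 to 82.2 in sets 2 and 6) was lower, and NKD2 (3.53 and 3.25 FPKM in set 5 and 0.0905 to 0.281 in sets 2 and 6), the receptor ROR1 (3.33 and 3.45 FPKM in set 5 and 0.1401 to 0.469 in sets 2 and 6) and the factor TCF7 (5.81 and 5.96 FPKM in set 5 and 0.549 to 1.43 in sets 2 and 6) were higher. Notch genes were called about as often as all genes, with 4 lower (18.2%, against 21.5%) and 3 higher (13.6%, against 13.8%) of 22, and 1 lower and 1 higher with the random block. The ligand JAG1 had 16.2 and 18.4 FPKM in set 5 and 50.8 to 68.4 in sets 2 and 6 and was lower, while its relative JAG2 had 3.901 and 4.0998 FPKM in set 5 and 0.112 to 0.194 in sets 2 and 6 and was higher. NOTCH2 (5.596 and 5.73 FPKM in set 5 and 11.7 to 18.1 in sets 2 and 6) and the sheddase ADAM17 (9.99 and 11.5 FPKM in set 5 and 17.04 to 21.04 in sets 2 and 6) were lower.

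Interferon-stimulated genes had 13 lower and 3 higher of 29 (median -0.55, random block 1 higher and 7 lower), and MHC class I and peptide loading genes 5 lower (25.0%, near the 21.5% of all genes) and 1 higher of 20 (median -0.38, random block 1 higher and 1 lower). ISG15, an interferon-induced ubiquitin-like protein, had 8.24 and 7.58 FPKM in set 5, against 62.9 and 53.5 in set 2 and 91.1 and 77.8 in set 6. SP100 (3.26 and 2.65 FPKM in set 5 and 13.1 to 21.2 in sets 2 and 6), IRF1 (6.26 and 6.78 FPKM in set 5 and 14.6 to 16.8 in sets 2 and 6) and IFITM1 (0.931 and 0.534 FPKM in set 5 and 3.82 to 5.85 in sets 2 and 6) were lower. The class I gene HLA-B, which has related sequences between which reads can be divided, had 3.196 and 2.65 FPKM in set 5 and 6.69 to 8.599 in sets 2 and 6 and was lower. B2M, the light chain of class I, had 445 and 412 FPKM in set 5 and 670.4 to 869 in sets 2 and 6 and was lower. TAPBPL, a peptide editor, had 0.9102 and 0.721 FPKM in set 5 and 2.69 to 4.199 in sets 2 and 6 and was lower. Among p53 targets and cell cycle inhibitors, 10 were lower and 3 higher of 34 (median -0.37, random block 2 higher and 8 lower). GADD45A, induced by DNA damage, had 20.1 and 20.2 FPKM in set 5, against 199 and 223 in set 2 and 134 and 135 in set 6, and SFN, an epithelial cell cycle arrest gene, had 0.937 and 1.03 FPKM in set 5 and 28.2 to 33.9 in sets 2 and 6. ATF4 and endoplasmic reticulum stress genes had 11 lower and 1 higher of 32 (median -0.49, random block 0 higher and 4 lower), including HERPUD1 (18.1 and 17.2 FPKM in set 5 and 37.6 to 41.2 in sets 2 and 6), EDEM1 (11.7 and 12.2 FPKM in set 5 and 24.6 to 27.7 in sets 2 and 6) and VLDLR (0.742 and 0.513 FPKM in set 5 and 6.94 to 12.9 in sets 2 and 6). Hypoxia genes had 5 higher (16.7%) and 4 lower (13.3%) of 30, near the 13.8% and 21.5% of all genes (random block 2 higher and 3 lower). NDRG1 had 84.5 and 81.9 FPKM in set 5 and 10.1 to 19.8 in sets 2 and 6 and was higher, and the oxygen sensor EGLN1 had 9.37 and 9.85 FPKM in set 5 and 17.4 to 20.03 in sets 2 and 6 and was lower.

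Among PLK2, NFE2L2 and CDKN1A, which the series title names, PLK2 was called lower and the other two were not called, nor was KEAP1. PLK2, a stress-responsive polo-like kinase, had 7.05 and 6.06 FPKM in set 5, against 70.5 and 79.1 in set 2 and 37.6 and 32.9 in set 6, a difference of -2.80 (SE 0.42, adjusted p = 0.00801). NFE2L2, which encodes the antioxidant factor Nrf2, had 106 and 107 FPKM in set 5, against 130.3 and 149 in set 2 and 81.6 and 90.2 in set 6, so set 5 lay between set 2 and set 6. KEAP1, which marks Nrf2 for degradation, had 40.2 and 39.8 FPKM in set 5 and 30.3 to 43.1 in sets 2 and 6, and CDKN1A, a cyclin-dependent kinase inhibitor, had 39.2 and 40.3 FPKM in set 5, against 31.996 and 37.4 in set 2 and 65.1 and 50.9 in set 6. The intervals were -0.74 to 0.68 for NFE2L2, -0.31 to 0.51 for KEAP1 and -0.95 to 0.62 for CDKN1A, and their adjusted p were 0.935, 0.638 and 0.698. Of 46 NRF2 targets and peroxide-removing enzymes, 15 were higher and 7 lower (median 0.16, random block 8 higher and 2 lower). NQO1, a quinone reductase and standard NRF2 target, had 499 and 504 FPKM in set 5, against 164 and 171 in set 2 and 183 and 192 in set 6 and was higher. PRDX4, a peroxiredoxin of the endoplasmic reticulum, had 83.5 and 83.2 FPKM in set 5 and 215 to 247 in sets 2 and 6 and was lower.

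**Figure D4:**
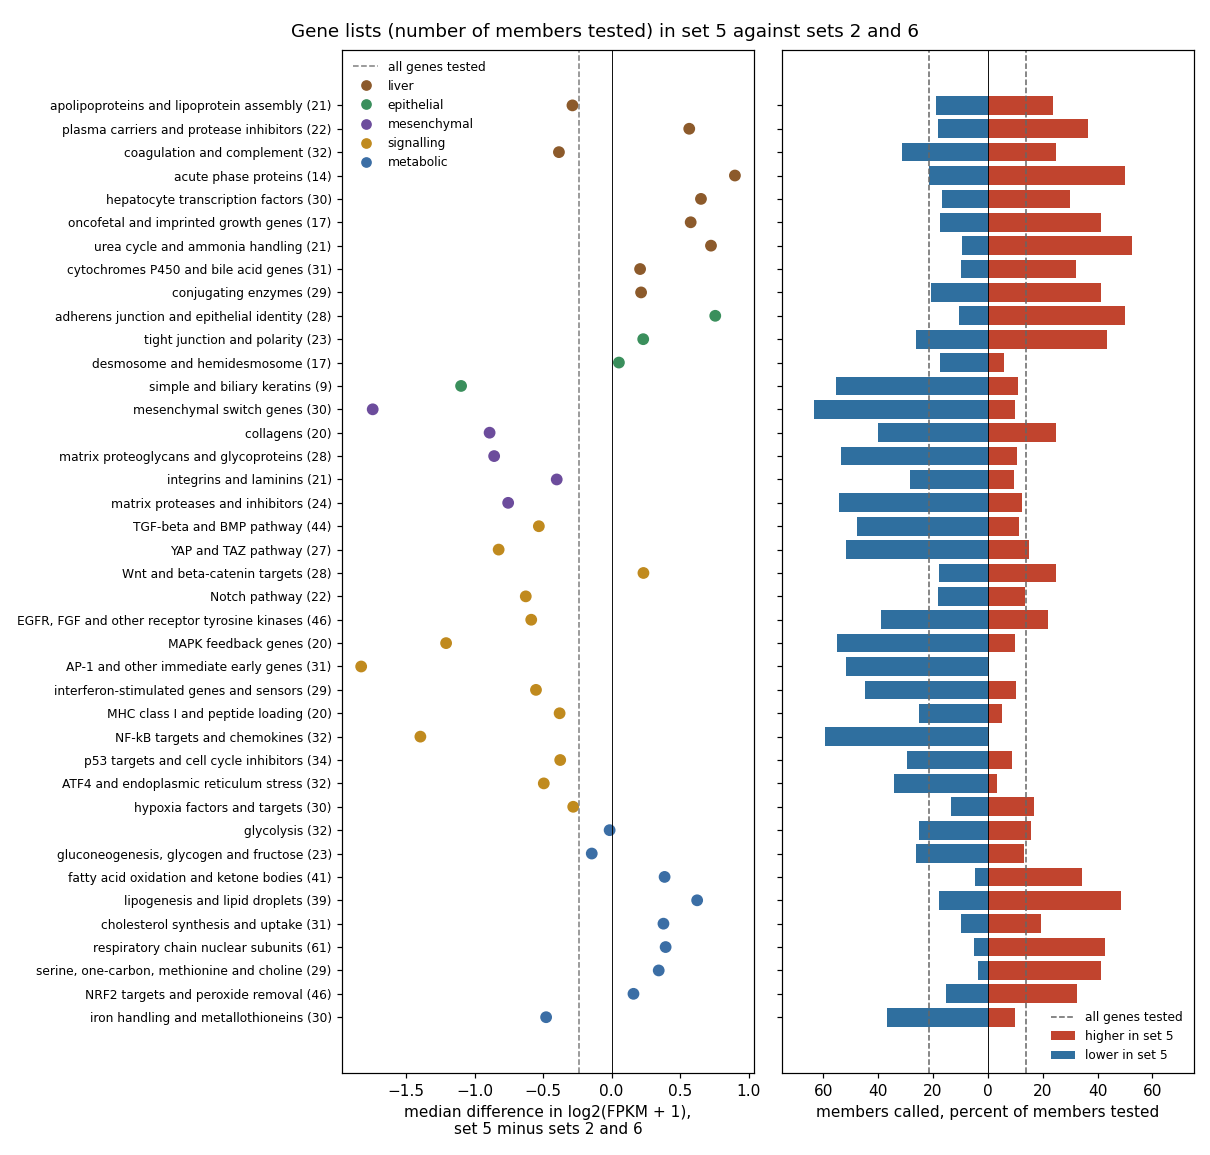
Gene lists grouped by programme, with the number of members tested in brackets. On the left, each point is the median difference in log2(FPKM + 1) of set 5 from sets 2 and 6 and the dashed line the median of all genes, at -0.24; on the right, bars give the percent of tested members called higher or lower and dashed lines the 13.8% and 21.5% of all genes.

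Metabolic genes leaned higher. Of 354 members, 327 were tested, 100 were higher (30.6%, against 13.8% of all genes) and 47 lower (14.4%, against 21.5%), with a median of 0.26. Of the 327, 7 had passed the filter only through set 5 and 18 only through the other sets. In the fit with the random block, 44 were called higher and 22 lower, the latter near the 6.25% of all genes in that fit. Lipogenesis and lipid droplet genes had 19 higher and 7 lower of 39 (median 0.62, random block 6 higher and 2 lower). DGAT1, which makes triglyceride, had 62.02 and 58.5 FPKM in set 5, against 7.305 and 5.93 in set 2 and 7.81 and 4.93 in set 6. FABP1, the fatty acid carrier of liver and intestine, had 952 and 827 FPKM in set 5, against 30.6 and 29.98 in set 2 and 20.2 and 13.3 in set 6, and was 37.8-fold higher. FASN, the fatty acid synthase, had 85.04 and 88.1 FPKM in set 5 and 44.4 to 65.8 in sets 2 and 6, a smaller difference of 0.67 (adjusted p = 0.0454). SCD5, a stearoyl-CoA desaturase, had 3.596 and 3.296 FPKM in set 5 and 0.0404 to 0.121 in sets 2 and 6.

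Fatty acid oxidation and ketone genes had 14 higher and 2 lower of 41 (median 0.39, random block 6 higher and 0 lower). SLC25A20, the carnitine carrier of mitochondria, had 62.9 and 59.1 FPKM in set 5, against 13.1 and 12.05 in set 2 and 17.5 and 16.6 in set 6. ACAA2 (78.6 and 69.5 FPKM in set 5 and 29.8 to 36.2 in sets 2 and 6), the last enzyme of the mitochondrial spiral, EHHADH (27.1 and 26.4 FPKM in set 5 and 4.45 to 7.83 in sets 2 and 6), an enzyme of peroxisomes, and BDH2 (24.9 and 26.02 FPKM in set 5 and 6.38 to 8.37 in sets 2 and 6) were higher. Of 61 nuclear subunits of the respiratory chain, 26 were higher and 3 lower (median 0.39). NDUFS1, the largest subunit of complex I, had 85.6 and 90.8 FPKM in set 5, against 28.1 and 28.3 in set 2 and 26.9 and 27.9 in set 6. NDUFS4 (67.9 and 63.1 FPKM in set 5 and 22.04 to 24.1 in sets 2 and 6) and ATP5B (938 and 941 FPKM in set 5 and 478 to 512 in sets 2 and 6), the catalytic subunit of ATP synthase, were higher, and NDUFA4 (73.5 and 69.6 FPKM in set 5 and 125 to 132 in sets 2 and 6) was lower. With the set as a random block 12 subunits were called higher and 1 lower.

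Cholesterol genes had 6 higher and 3 lower of 31 (median 0.38, random block 4 higher and 1 lower). HMGCS1, an early enzyme of the pathway, had 149 and 159.97 FPKM in set 5 and 61.3 to 74.6 in sets 2 and 6, and EBP, a late one, had 241 and 226 FPKM in set 5 and 102 to 133 in sets 2 and 6; both were higher. SOAT2, which esterifies cholesterol in liver and intestine, had 13.2 and 12.2 FPKM in set 5 and 0.157 to 0.855 in sets 2 and 6. Serine, one-carbon, methionine and choline genes had 12 higher and 1 lower of 29 (median 0.34, random block 6 higher and 0 lower). MAT1A, the liver form of the S-adenosylmethionine synthetase, had 8.93 and 9.49 FPKM in set 5, against 0.706 and 1.04 in set 2 and 1.33 and 1.3997 in set 6. AMT (29.3 and 30.7 FPKM in set 5 and 6.86 to 8.29 in sets 2 and 6), of the glycine cleavage system, and the sarcosine dehydrogenase SARDH (12.3 and 11.8 FPKM in set 5 and 0.464 to 1.43 in sets 2 and 6) were higher.

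Glycolysis and glucose output showed no common direction. Glycolysis had 5 higher and 8 lower of 32 (median -0.01, random block 3 higher and 4 lower), and gluconeogenesis, glycogen and fructose genes 3 higher and 6 lower of 23 (median -0.14, random block 0 higher and 5 lower). HK1, the widely expressed hexokinase, had 0.533 and 0.283 FPKM in set 5, against 26.97 and 25.02 in set 2 and 50.9 and 49.9 in set 6, and was 93.6-fold lower. PFKL, the liver form of phosphofructokinase, had 61.96 and 59.5 FPKM in set 5, against 16.7 and 15.9 in set 2 and 21.7 and 22.7 in set 6 and was higher. PFKP, its platelet form, had 0.195 and 0.0566 FPKM in set 5, against 9.99 and 9.27 in set 2 and 9.51 and 5.85 in set 6 and was lower. PDK2 had 7.18 and 5.96 FPKM in set 5 and 1.69 to 2.47 in sets 2 and 6 and was higher, and PKM, the pyruvate kinase of tumours, had 606 and 601 FPKM in set 5 and 557 to 739 in sets 2 and 6 and was not called. Lower were also FOXO1 (1.35 and 1.57 FPKM in set 5 and 7.33 to 13.2 in sets 2 and 6) and PPARGC1A (0.0981 and 0.0929 FPKM in set 5 and 2.103 to 4.56 in sets 2 and 6), regulators of gluconeogenesis, the glycogen phosphorylase PYGB (23.2 and 20.9 FPKM in set 5 and 57.2 to 69.1 in sets 2 and 6) and UGP2 (56.7 and 51.8 FPKM in set 5 and 75.5 to 101 in sets 2 and 6). Iron and metallothionein genes had 11 lower (36.7%, against 21.5% of all genes) and 3 higher of 30. Their median was -0.48, and the random block called 0 higher and 7 lower. Of the 30, 8 had passed the filter only through the other sets, MT1G, MT1L and HFE2 among them. A difference in these genes is in part built in. The 22 that reached 1 FPKM on both sides had 3 higher and 6 lower. MT2A, the main metallothionein, which buffers zinc and copper, had 11.2 and 13.2 FPKM in set 5, against 203 and 312 in set 2 and 229 and 209 in set 6. MT1G (0.529 and 0.758 FPKM in set 5 and 21.5 to 178 in sets 2 and 6) and MT1F (2.98 and 4.205 FPKM in set 5 and 22.97 to 33.1 in sets 2 and 6) were lower, and so was MT1L, listed at 0 in both set 5 libraries with 4.11 to 8.33 FPKM in sets 2 and 6; these are close copies between which reads can be divided. HFE2, the gene of hemojuvelin, which acts in hepcidin control, had 0.251 and 0.2296 FPKM in set 5 and 7.52 to 10.2 in sets 2 and 6.

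Proliferation genes were mixed. MKI67, the marker of cycling cells, had 33.2 and 34.7 FPKM in set 5, against 36.2 and 29.7 in set 2 and 28.6 and 26.5 in set 6 and was not called (adjusted p = 0.395). Of 45 S phase genes, 16 were higher (35.6%, against 13.8% of all genes) and 5 lower (11.1%, against 21.5%), with a median of 0.26 (random block 4 higher and 1 lower). Of 46 G2 and mitosis genes 4 were higher (8.70%) and 8 lower (17.4%), both below the shares of all genes (median 0.02, random block 2 higher and 0 lower). TYMS, thymidylate synthase, had 123 and 117 FPKM in set 5 and 51.4 to 56.4 in sets 2 and 6. MCM5, of the replicative helicase, had 33.9 and 30.2 FPKM in set 5 and 12.4 to 14.7 in sets 2 and 6. The uracil glycosylase UNG had 57.6 and 54.1 FPKM in set 5 and 20.3 to 25.1 in sets 2 and 6. CDC45, the partner of that helicase, had 17.2 and 17.8 FPKM in set 5, against 54.3 and 58.7 in set 2 and 58.3 and 66.7 in set 6 and was lower. CCNB2 (69.2 and 64.02 FPKM in set 5 and 18.6 to 25.9 in sets 2 and 6), TOP2A (105 and 105 FPKM in set 5 and 42.7 to 56.3 in sets 2 and 6) and AURKB (75.2 and 71.8 FPKM in set 5 and 44.6 to 51.7 in sets 2 and 6), which act in mitosis, were higher, and the cytokinesis protein ANLN (29.9 and 31.2 FPKM in set 5 and 55.7 to 78.7 in sets 2 and 6) was lower. Of 57 cytosolic ribosomal protein genes, which have processed copies, 26 were higher (45.6%, against 13.8% of all genes) and 0 lower (median 0.38). RPL37 (761 and 686 FPKM in set 5 and 229 to 297 in sets 2 and 6) and RPLP0 (1969 and 1833 FPKM in set 5 and 944 to 1104 in sets 2 and 6) were higher, as were RPL27 (1607 and 1537 FPKM in set 5 and 736 to 873 in sets 2 and 6) and RPL3 (1169 and 1086 FPKM in set 5 and 611 to 674 in sets 2 and 6). That balance depended on the scaling. Median-of-ratios scaling called 35 higher and 0 lower, rescaling to equal sums 24 and 1, and quantile normalization 10 and 5. With the set as a random block 1 was higher and 0 lower.

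HOX genes, which keep a record of position along the body, differed by cluster member. Of 39, 27 were tested, 10 were higher (37.0%, against 13.8% of all genes) and 5 lower (18.5%, against 21.5%). The random block called 6 higher and 0 lower. Of the 27, 8 had passed the filter only through set 5 and 1 only through the other sets. The 18 that reached 1 FPKM on both sides had 2 higher and 5 lower. HOXB7 had 19.6 and 17.6 FPKM in set 5, against 0.266 and 0.153 in set 2 and 0.239 and 0.276 in set 6. HOXB9 had 22.6 and 23.7 FPKM in set 5, against 0.515 and 0.737 in set 2 and 0.184 and 0.155 in set 6. Both lie in the HOXB cluster on chromosome 17 and were near 0 outside set 5. HOXD4 (13.6 and 14.3 FPKM in set 5 and 0.0826 to 1.16 in sets 2 and 6) and HOXD3 (2.64 and 2.06 FPKM in set 5 and 0 to 0.152 in sets 2 and 6) were higher too. HOXB7, HOXB9 and HOXD3 passed the filter only through set 5, so that their difference is in part built in. Of 30 cancer-testis antigens 5 were tested. MAGEB2 was listed at 0 in both set 5 libraries and had 13.8 to 17.1 FPKM in sets 2 and 6, TEX15 was lower (1.29 and 1.53 FPKM in set 5 and 4.401 to 6.88 in sets 2 and 6) and DDX43 higher (9.17 and 8.88 FPKM in set 5 and 1.88 to 2.97 in sets 2 and 6).

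Few markers of blood or vessel cells passed the filter. Of 16 immune markers 7 were tested, 1 was higher (14.3%, against 13.8% of all genes) and 2 lower (28.6%, against 21.5%), near the shares of all genes. The 4 tested and not called were CD68 (56.6 and 57.5 FPKM in set 5 and 37.0 to 66.9 in sets 2 and 6), CD79A, CD14 and AIF1. CD3D, described below, had passed the filter only through the other sets, so that its difference is in part built in. LYZ, lysozyme of myeloid and gut secretory cells, had 479 and 457 FPKM in set 5, against 32.6 and 27.7 in set 2 and 67.6 and 57.9 in set 6. It made up most of the summed immune level of 540.9 and 519.4 FPKM in set 5, against 96.6 to 154.1 FPKM in sets 2 and 6. The T cell gene CD3D (0.284 and 0.102 FPKM in set 5 and 4.62 to 7.01 in sets 2 and 6) and FCER1G (0.881 and 1.13 FPKM in set 5 and 6.86 to 11.6 in sets 2 and 6), a signalling chain of myeloid cells, were lower. The leukocyte marker PTPRC had 0 and 0.0226 FPKM in set 5 and 0.161 to 0.9504 in sets 2 and 6. Of 15 endothelial markers 2 were tested and both were lower, ESAM (0.603 and 0.527 FPKM in set 5 and 24.5 to 38.97 in sets 2 and 6) and LYVE1 (0 in both set 5 libraries and 1.38 to 2.74 in sets 2 and 6). Both passed the filter only through the other sets, so that their difference is in part built in. No endothelial marker reached 1 FPKM on both sides. The defining endothelial genes CDH5 (0 to 0.0441 FPKM in sets 2 and 6) and KDR (0 to 0.0226) were at or near 0 in every library. The summed endothelial level was 1.65 and 1.40 FPKM in set 5 and 26.9 to 43.3 in sets 2 and 6, where ESAM made up most of it. Of 18 neural markers 8 were tested, 4 were lower and 0 higher: TUBB3 (14.7 and 8.17 FPKM in set 5 and 80.9 to 127 in sets 2 and 6), NES (24.2 and 24.9 FPKM in set 5 and 88.9 to 148 in sets 2 and 6), ENO2 (1.57 and 1.71 FPKM in set 5 and 10.7 to 43.3 in sets 2 and 6) and SYP (0.585 and 0.525 FPKM in set 5 and 1.801 to 4.91 in sets 2 and 6). PTPRC, CDH5 and KDR were picked after their values were seen.

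Bile duct and progenitor markers had 6 higher (46.2%, against 13.8% of all genes) and 5 lower (38.5%, against 21.5%) of 13 tested (random block 3 higher and 2 lower). Of the 13, 3 had passed the filter only through the other sets, KRT7 among them, so that their difference is in part built in. The 10 that reached 1 FPKM on both sides had 6 higher and 2 lower. EPCAM and the annexin ANXA4 (150.3 and 142 FPKM in set 5 and 29.4 to 38.3 in sets 2 and 6) were higher, and KRT19 and KRT7 were lower. The summed level of that list was 735.7 and 755.2 FPKM in set 5 and 391.9 to 411.7 FPKM in sets 2 and 6.

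The difference of set 5 from the other sets did not change with treatment to a degree these libraries could show. The interaction of set 5 and treatment called 0 of 15036 genes (0.0%) in limma, where no adjusted p was below 0.99999. At an unadjusted p under 0.05 there were 36 genes, 18 of them with a positive term. The smallest p belonged to ARPP19, a mitotic phosphatase inhibitor, which had 4.73 and 38.5 FPKM in set 5, against 35.5 and 31.8 in set 2 and 34.3 and 43.6 in set 6, so that the set 5 NACER_ASO library stood apart (interaction -2.70, SE 0.37). Next were CNBP, a nucleic acid-binding protein with 34.5 and 89.97 FPKM in set 5, against 104 and 113 in set 2 and 105 and 115 in set 6 (interaction -1.24, SE 0.23), and MIR34AHG, the host transcript of a p53-induced microRNA, with 0.0251 and 0 FPKM in set 5, against 0.0972 and 13.3 in set 2 and 0.0245 and 7.14 in set 6 (interaction 3.38, SE 0.65).

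Called genes were spread over all chromosomes but not evenly. A chromosome could be read from the file for 14994 genes. On chromosome 17, 245 of 892 genes (27.5%) were higher and 77 (8.63%) lower, and the median of its genes was 0.20, which was above 0 against set 2 (0.22) and against set 6 (0.24). On chromosome 22, 28 of 366 genes (7.65%) were higher and 137 (37.4%) lower, with a median of -0.49. Chromosome X (median -0.47), chromosome 14 (-0.45) and chromosome 10 (-0.44) also had medians below -0.4. Between set 6 and set 2 the medians of chromosomes 17 and 22 were 0.03 and 0.08. Among genes with a mean of at least 5 FPKM the medians of these 2 chromosomes were 0.24 and -0.57.

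**Figure D5:**
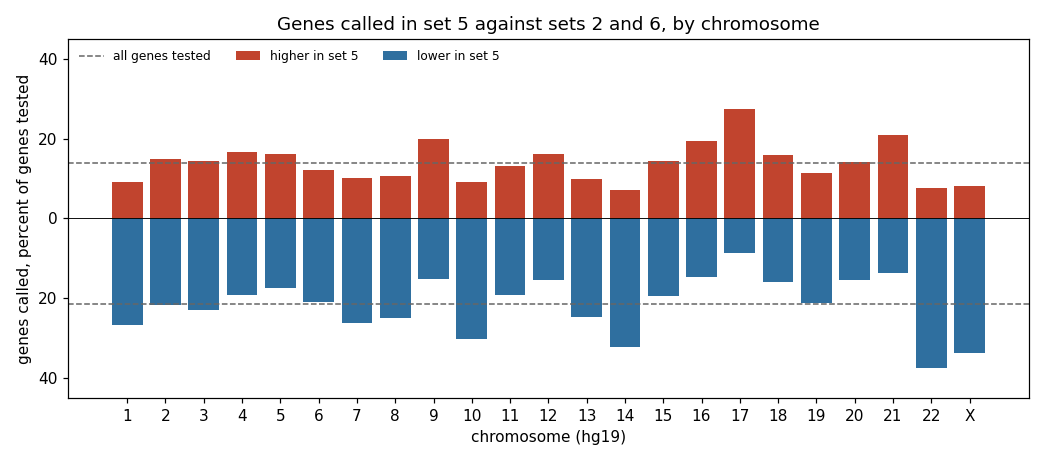
Percent of the tested genes of each chromosome called higher (above 0) or lower (below 0) in set 5 against sets 2 and 6, with dashed lines at the 13.8% and 21.5% of all genes. Chromosome 17 has the highest share of higher genes, at 27.5%, and chromosome 22 the highest share of lower genes, at 37.4%.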

How the data were processed

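The authors deposited FPKM values per RefSeq transcript with gene symbols and hg19 loci, per the file headers. The tools named in the submitters' processing notes are FastQC 0.11.5, Bowtie2 2.2.6 and StringTie 1.3.3b, and use of strand in counting is not given in the sources used here. FPKM of the transcripts of a symbol were summed (63714 transcript rows, 27689 symbols), and symbols that reached 1 FPKM in 2 or more libraries were tested. No counts were at hand and whole reads were not recovered (only 29.4% to 41.1% of low values came within 2% of whole multiples of a step), so no count model was fitted and precision at low levels is unknown. Being relative to the library, FPKM does not show the amount of RNA per cell.

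Log2(FPKM + 1) was fitted in limma 3.58.1 (R 4.3.3) with set 5 and treatment as terms and a mean-variance trend, two-sided, with Benjamini-Hochberg adjustment over all genes and a threshold of 0.05. Set as a 3-level factor and the interaction of set 5 with treatment were fitted the same way, and the fits were tested on simulated data. Folds are ratios of mean FPKM over 2 and over 4 libraries, and none is given where a library was listed at 0.

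The members, the gene lists and the comparison were chosen with earlier results of these data known, so list counts carry no p. Named are 33 panel genes with the 6 markers, the 15 largest called differences in each direction outside the range of the other libraries (without readthrough and small RNA genes), up to 4 called members of each list by smallest p, up to 10 genes near off in 1 group, and the 3 smallest interaction p. Exceptions are named as such, and some genes that this rule picks are not reported here. Motifs were searched in the 250 bases before each RefSeq start.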

Additional observations from a re-analysis of the deposited data

Results flagged for a closer look

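Among the 4 libraries of sets 2 and 6, the 221 named genes were searched for a library whose gap to its nearest neighbour, as a share of the range of the 4, was above Dixon's 95% critical value. Chance flags about 1 gene in 20, and 11 genes were found, 4 of them in the set 2 NACER_ASO library and 4 in the set 6 NACER_ASO library.

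In the set 2 NACER_ASO library, FOXA2 stood high at 41.5 FPKM, with 6.58 to 9.34 FPKM in the other 3 libraries, and AGR2 stood high at 5.26 FPKM. In the same library CLDN4 was low at 0.274 FPKM, and NOX1 had 0.0362 FPKM where the other 3 libraries were listed at 0. In the set 2 NC library, CYR61 was high at 259.3 FPKM.

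In the set 6 NACER_ASO library, TAPBPL (4.199 FPKM), AURKB (51.7 FPKM) and CD3D (7.01 FPKM) were high, and DST was low at 55.5 FPKM. In the set 6 NC library, ABCC3 (5.34 FPKM) and IFITM1 (3.82 FPKM) were low.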

How the results depend on the processing

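Among the 203 named genes that were called, none changed sign in any of the 20 settings in which it was run. Where set 5 lay wholly outside the range of the other libraries, as in nearly all calls, leaving out a library or a set could not turn the sign. All 203 were run in each setting except a mean of 5 FPKM or more (168 genes), either set 5 library left out (172 genes each) and set 2 left out (202 genes). With either set 5 library left out, many of the named calls were lost. Of the 203, 180 held with the set as a random block and 78 with each set reduced to its mean, while 192 held with the most abundant transcript per symbol and 198 with quantile normalization. Calls over all genes were 719 higher and 940 lower with the random block, 65 and 98 with set means, and 3745 and 7117 with set as a 3-level factor. They were 4072 and 5940 without set 2 and 3598 and 7198 without set 6. Leaving out 1 library of any set gave 75 to 1917 higher and 226 to 3090 lower; the lowest counts came without either set 5 library, which leaves 1 set 5 library that is assumed to vary like the others. With a mean of 5 FPKM or more, which tests fewer genes, 4125 were lower between set 5 and set 2, 2333 higher between set 5 and set 6, and 2021 lower between set 6 and set 2. The interaction kept 0 calls in the 4 settings run. No paired analysis was possible because each set lies within 1 side of the comparison.

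The signs that turned were of genes not called in the comparison above, and the cause was not tested. With the turned sign, TTR without set 6 (limma adjusted p = 7.68e-05) and NFE2L2 without set 2 (0.0065) were called. Without set 6, TTR was at -0.80, GPC3 at -0.18, KRT18 at -0.13, TGFB1 at 0.0039, MET at 0.040, PKM at 0.077 and CDKN1A at 0.20. Without set 2, NFE2L2 was at 0.31 and KEAP1 at -0.042. Median-of-ratios scaling put MET at 0.081, PKM at 0.071, NFE2L2 at 0.14 and CDKN1A at 0.010, and rescaling to equal sums put KRT18 at -0.049. Quantile normalization put KRT8 at -0.12, KRT18 at -0.40, MET at 0.074 and NFE2L2 at 0.0071. The most abundant transcript put PKM at 0.60, MKI67 at -0.21 and KEAP1 at -0.52. Leaving out 1 library gave -0.061 to 1.08 for TTR, -0.071 to 0.16 for KRT18, -0.21 to 0.026 for MET, -0.19 to 0.13 for NFE2L2, -0.0082 to 0.20 for KEAP1, -0.37 to 0.059 for CDKN1A and -2.65 to 0.048 for ARPP19.

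Whether set 5 comes from the same cell line as sets 2 and 6 was not tested. With 1 set on one side, what sets 5 and 2 and 6 differ in besides RNA is not known, and 2 libraries of a set give no spread between cultures. Values under about 1 FPKM rest on few fragments.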

Other observations

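Readthrough genes and small RNA genes, whose reads can belong to an overlapping gene, were left out of the genes named by size. Of these, 19 were called higher and 35 lower in set 5.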
